A study of Homo sapiens with 12 samples.

Results

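The mitochondrial ribosomal protein genes are the 78 protein-coding genes whose symbol is MRPL or MRPS followed by a digit, out of 58233 genes in the deposited count table. The rule uses the symbol and no measured value, and the members comprise 49 MRPL and 29 MRPS genes on 21 chromosomes. RNA was sequenced from HCT116 cells, a human colorectal carcinoma line, in 4 groups of 3 libraries each. The parental line is HCT116 Tet-OsTIR1, in which doxycycline (Dox) switches on the plant F-box protein OsTIR1 from the AAVS1 locus. The SDS22-degron line was derived from it as an isolated and expanded colony in which the endogenous PPP1R7 gene encodes SDS22 fused to mAID-mClover. Each line was left untreated or received 2 µg/ml Dox and 500 µM indole-3-acetic acid (IAA) for 48 h. In treated SDS22-degron cells the tagged SDS22, a regulatory partner of protein phosphatase-1, is therefore degraded, whereas treated parental cells receive the same agents without a tagged target. Both treated groups thus contain Dox, IAA and induced OsTIR1, and their parts in any Dox/IAA effect cannot be told apart.

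The mitochondrial ribosome translates the few mRNAs of the mitochondrial genome, all of which encode subunits of the respiratory chain or ATP synthase. Its rRNAs come from the mitochondrial genome, but all of its proteins are encoded in the nucleus, made in the cytosol and imported. MRPL names stand for the large subunit, which joins the amino acids, and MRPS names for the small subunit, which reads the mRNA. Some symbols follow history rather than place: the MRPS30 and MRPS18A proteins sit in the large subunit, and MRPS36 belongs to the 2-oxoglutarate dehydrogenase complex. Doxycycline is a tetracycline antibiotic that inhibits bacterial ribosomes and also slows translation by the mitochondrial ribosome, so the inducer itself acts on the machine that these genes encode.

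Promoters are shown for 5 members because nuclear genes for mitochondrial proteins are known for sites of a few shared transcription factors. RefSeq promoters (GRCh38.p14, 250 bases before to 50 after the gene start, first listed start) were matched by symbol for 69 of the 78 members. They were searched on both strands for GCGCANGCG (NRF1), CCGGAAGT (GABPA, an ETS factor) and AAGATGGCG (YY1), 3 motifs that do not contain one another. The sequences run 5′ to 3′ along the gene, and capitals mark a match to one of the motifs. MRPL24 had the lowest fold change of these members in SDS22-degron cells treated with Dox/IAA and holds none of the 3 motifs. MRPL36, MRPL3 and MRPS18B had the lowest fold change among members with the NRF1, GABPA and YY1 letters, respectively. MRPL36 also holds the YY1 letters, and MRPS14 had the highest fold change among members of at least 10 CPM on average (counts-per-million reads).

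MRPL24 (chr1:156741039-156741338, minus strand): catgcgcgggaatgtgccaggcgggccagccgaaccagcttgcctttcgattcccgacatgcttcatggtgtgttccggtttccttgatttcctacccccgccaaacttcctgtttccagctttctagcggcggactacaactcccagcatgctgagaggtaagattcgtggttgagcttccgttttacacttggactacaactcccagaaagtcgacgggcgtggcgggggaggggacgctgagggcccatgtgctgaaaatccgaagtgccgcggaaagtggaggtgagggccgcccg
MRPL36 (chr5:1799788-1800087, minus strand): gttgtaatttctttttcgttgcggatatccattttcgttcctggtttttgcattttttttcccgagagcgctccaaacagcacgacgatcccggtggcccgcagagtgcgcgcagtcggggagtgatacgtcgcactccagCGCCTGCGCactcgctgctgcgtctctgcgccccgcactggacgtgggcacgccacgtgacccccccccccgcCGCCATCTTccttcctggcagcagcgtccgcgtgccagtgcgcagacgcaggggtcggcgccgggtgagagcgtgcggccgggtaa
MRPL3 (chr3:131502922-131503221, minus strand): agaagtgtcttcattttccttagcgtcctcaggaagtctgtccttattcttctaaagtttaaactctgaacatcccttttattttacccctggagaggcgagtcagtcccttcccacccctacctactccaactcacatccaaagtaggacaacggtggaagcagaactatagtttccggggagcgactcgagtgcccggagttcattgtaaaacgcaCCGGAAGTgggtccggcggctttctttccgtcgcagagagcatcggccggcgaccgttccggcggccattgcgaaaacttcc
MRPS18B (chr6:30617590-30617889, plus strand): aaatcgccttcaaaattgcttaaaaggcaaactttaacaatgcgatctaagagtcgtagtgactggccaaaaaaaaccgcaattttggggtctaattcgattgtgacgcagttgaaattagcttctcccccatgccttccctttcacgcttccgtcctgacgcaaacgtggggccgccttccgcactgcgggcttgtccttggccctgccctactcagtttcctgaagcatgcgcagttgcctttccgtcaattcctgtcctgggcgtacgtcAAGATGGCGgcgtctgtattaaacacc
MRPS14 (chr1:175023376-175023675, minus strand): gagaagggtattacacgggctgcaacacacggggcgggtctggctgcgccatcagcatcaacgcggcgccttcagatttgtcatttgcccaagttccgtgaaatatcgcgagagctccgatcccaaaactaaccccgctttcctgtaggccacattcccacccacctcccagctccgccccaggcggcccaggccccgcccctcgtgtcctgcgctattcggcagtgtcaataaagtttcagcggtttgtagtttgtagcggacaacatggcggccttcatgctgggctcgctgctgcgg

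The NRF1 letters were found in 13 of the 69 promoters (18.8%), against 8.05% of 27305 promoters in the same table. The GABPA letters were found in 11 (15.9%, against 4.44%) and the YY1 letters in 13 (18.8%, against 1.85%). Of the 69 promoters, 32 held at least 1 of the 3 motifs and 37 held none. The 27305 promoters were not filtered by gene type or expression, whereas the members are protein coding and nearly all expressed, so the sets are unlike. A match of letters is not evidence of binding, and no test was made of these shares.

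Each library held 12133915 to 14657508 counted reads, and members took between 0.344% and 0.498% of them. Levels are given as counts-per-million (CPM) after TMM normalization, and differences as log2 fold changes with their standard error. The epithelial markers EPCAM (284 CPM on average), CDH1 (121 CPM), KRT8, KRT18 and KRT19 were expressed, whereas the intestinal marker CDH17 was at 0 and VIL1 near 0. Of 12 markers of other cell types, 2 passed the filter: COL1A1 rose with Dox/IAA in both lines and VWF in SDS22-degron cells. The summed level of the 12 was between 10.7 and 14.4 CPM in untreated parental and between 22.6 and 33.3 CPM in treated SDS22-degron libraries, and its part in the results was not tested. The PPP1R7 transcript was between 40.1 and 51.1 CPM in all libraries and is no check of the labels, since the protein is what the treatment removes. Of the 78 members, 77 passed the filter on low counts and were tested among 16657 genes. MRPS24, at 0.398 CPM on average, did not pass.

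Summed over the 78 members, the mRNA level was lower after Dox/IAA in both lines and lowest in treated SDS22-degron cells. In untreated parental cells the 3 libraries summed to 4846, 5110 and 4833 CPM, and after Dox/IAA to 4104, 4294 and 4000 CPM. In untreated SDS22-degron cells they summed to 4737, 4887 and 4926 CPM, and after Dox/IAA to 3638, 3576 and 3439 CPM. Both treated groups lay below both untreated groups, the treated lines did not overlap each other, and the untreated lines did. The mean fell from 4930 ± 156 to 4133 ± 149 CPM in parental and from 4850 ± 99.9 to 3551 ± 102 CPM in SDS22-degron cells (SD, n = 3 each), that is to 83.8% and 73.2%. The MRPL genes alone fell to 85.0% and 74.4%, and the MRPS genes alone to 82.1% and 71.4%. Less mRNA per cell and a change in the total RNA against which each gene is scaled cannot be told apart in these data.

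In parental cells, which carry no degron, Dox/IAA lowered 37 of the 77 members (48.1%) at an adjusted p under 0.05, where 15.7% of all tested genes were lower. The median log2 fold change of the members was -0.21, against 0.00152 for all genes, and 67 of 77 were negative. No member rose by edgeR's quasi-likelihood test (0, and 0 at an unadjusted p under 0.05), the likelihood ratio test (0) or DESeq2 (0), whereas 15.9% of all genes were higher. The 3 treated libraries lay below all 3 untreated ones in 42 members, a pattern that 20.2% of all genes showed. With library sizes as the only scaling, 27 members were lower and 1 higher, and 3503 genes in all were higher and 1958 lower.

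MRPL21, a large subunit protein with a bacterial counterpart, changed most in parental cells. It was at 38.7, 40.7 and 36.7 CPM untreated and at 24.5, 28.2 and 24.8 CPM after Dox/IAA (log2 fold change -0.58 ± 0.09 SE, adjusted p = 0.000133). The groups did not overlap. MRPL11, at the base of the stalk to which translation factors bind, fell from 68.7 ± 6.13 to 46.4 ± 5.50 CPM (SD, n = 3; log2 fold change -0.57 ± 0.09 SE, adjusted p = 0.000132). MRPL24, at the exit of the peptide tunnel, fell from 70.4, 64.8 and 59.8 CPM to 44.5, 46.8 and 41.4 CPM (-0.56 ± 0.09 SE, adjusted p = 0.000139). MRPS34, a small subunit protein without a bacterial counterpart, fell from 124 ± 4.86 to 86.8 ± 2.79 CPM (-0.52 ± 0.07 SE, adjusted p = 1.74e-05). MRPL3, which reaches towards the peptidyl transferase centre, fell from 143 ± 4.73 to 102 ± 7.48 CPM (-0.49 ± 0.08 SE, adjusted p = 0.000137). A pseudogene, MRPL3P1, held 8387 counts against 16014 for MRPL3, so the assignment of reads between this pair is uncertain.

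In SDS22-degron cells, Dox/IAA lowered 65 of the 77 members (84.4%), where 25.5% of all tested genes were lower. The median log2 fold change was -0.41, which corresponds to 75.2% of the untreated level, and the middle 50% of members lay between -0.58 and -0.29. No member rose by edgeR's quasi-likelihood test (0), the likelihood ratio test (0) or DESeq2 (0), and 1 was higher at an unadjusted p under 0.05, while 26.0% of all genes were higher. In 67 members the treated libraries lay below all untreated ones, against 29.7% of all genes. At an unadjusted p under 0.05 together with more than 1 log2 unit of change, MRPL24 alone was called in this comparison, where 7.83% of all genes were. MRPL11, at -0.997, fell just outside.

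The 4 members that fell most in SDS22-degron cells were MRPL24, MRPL11, MRPL23 and MRPL12 of the large subunit. Of other proteins at the tunnel exit and the stalk, chosen after their values were seen, MRPL22 (-0.44) and MRPL10 (-0.29) lay near or above the median of the members. MRPL24 (ENSG00000143314, chromosome 1, 156737303 to 156741590, 8 exons in the deposited table, which is on GRCh38) was at 52.0, 47.7 and 53.6 CPM untreated and at 27.0, 25.8 and 21.3 CPM after Dox/IAA. All treated libraries were below the untreated ones, and the level fell to 48.4% (log2 fold change -1.05 ± 0.09 SE, 95% interval -1.24 to -0.85, adjusted p = 5.52e-08). MRPL23, its neighbour at the tunnel exit, was expressed at a low level, with 7.14, 6.40 and 7.29 CPM untreated and 4.42, 4.41 and 1.98 CPM treated. The treated library of replicate 3 was the lowest of all, and the fold change was imprecise (-0.93 ± 0.22 SE, 95% interval -1.39 to -0.48, adjusted p = 0.00149). MRPL11 (ENSG00000174547, chromosome 11, 66435075 to 66466738, 7 exons) was at 61.2, 60.8 and 61.3 CPM untreated and at 33.5, 30.1 and 28.2 CPM treated, a fall to 50.1% (-0.997 ± 0.09 SE, adjusted p = 8.47e-08). Its untreated libraries were nearly identical, so that the spread between replicates was small against the change.

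MRPL12 (ENSG00000262814, chromosome 17, 81703357 to 81707526, 5 exons), the stalk protein that recruits translation factors and also binds the mitochondrial RNA polymerase, was at 65.8, 66.6 and 68.5 CPM untreated. After Dox/IAA it was at 36.5, 33.8 and 37.2 CPM, a fall to 53.5% (-0.90 ± 0.07 SE, adjusted p = 1.16e-08). MRPS2 (ENSG00000122140, chromosome 9, 135499984 to 135504673, 8 exons), a small subunit protein with a bacterial counterpart, was at 136, 140 and 154 CPM untreated and at 81.8, 79.8 and 74.9 CPM treated (-0.86 ± 0.07 SE, adjusted p = 3.53e-08). For both genes the treated libraries of SDS22-degron cells were below those of every other group. MRPL3 fell from 107 ± 6.20 to 61.8 ± 6.42 CPM (-0.79 ± 0.08 SE, adjusted p = 2.29e-07), and MRPS34 from 101 ± 5.01 to 62.6 ± 3.30 CPM (-0.69 ± 0.07 SE, adjusted p = 1.37e-07).

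MRPS12, which lines the decoding centre, was at 65.8, 70.6 and 67.8 CPM in untreated parental cells and at 56.6, 59.3 and 54.4 CPM after Dox/IAA (-0.26 ± 0.07 SE, adjusted p = 0.00572). In SDS22-degron cells it was at 68.8, 75.2 and 76.2 CPM untreated and at 50.1, 49.6 and 49.7 CPM treated (-0.56 ± 0.07 SE, adjusted p = 1.504e-06). The treated SDS22-degron libraries were again the lowest. MRPL58, the peptidyl-tRNA hydrolase of the large subunit that releases stalled chains, had a log2 fold change of -0.20 (adjusted p = 0.0709) in parental cells and fell in SDS22-degron cells (-0.38, adjusted p = 0.000864). MRPS30 fell in parental (-0.27, adjusted p = 0.00503) and in SDS22-degron cells (-0.29, adjusted p = 0.00128) to a similar degree. MRPS36, which is no part of the ribosome, had log2 fold changes of -0.06 ± 0.10 SE and -0.14 ± 0.09 SE and was called in neither line.

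The 3 paralogues of the bacterial protein S18 responded unequally in value. MRPS18B was at 104, 103 and 104 CPM in untreated and at 72.9, 81.7 and 69.1 CPM in treated parental cells. It was at 93.2, 97.3 and 96.1 CPM in untreated and at 57.1, 58.6 and 49.2 CPM in treated SDS22-degron cells, and fell in both lines (-0.48 ± 0.07 SE, adjusted p = 0.000123, and -0.80 ± 0.08 SE, adjusted p = 1.12e-07). MRPS18A, the paralogue of the large subunit, overlapped between untreated (45.0, 43.3 and 44.4 CPM) and treated parental libraries (46.4, 45.1 and 43.0 CPM). In SDS22-degron cells it fell without overlap, from 44.8, 48.8 and 53.1 CPM to 37.8, 34.7 and 35.7 CPM (-0.44 ± 0.08 SE, adjusted p = 9.97e-05). MRPS18C, at 11.9 CPM on average, had a value of -0.04 ± 0.14 SE in parental cells and fell in SDS22-degron cells (-0.40 ± 0.14 SE, adjusted p = 0.0228), a call lost in 4 of the 12 fits that left out 1 library. Differences between the paralogues themselves were not tested.

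The 12 members not called in SDS22-degron cells were MRPS28, MRPS31, MRPS36, MRPS9, MRPL46, MRPL55, MRPL43, MRPL41, MRPL54, MRPL33, MRPS14 and MRPL38, which are named here after their values were seen. Their log2 fold changes ranged from -0.37 for MRPS28 to 0.35 for MRPL38. MRPL43 was between 79.6 and 90.2 CPM in all 12 libraries, with fold changes of 0.00078 ± 0.06 SE in parental and -0.03 ± 0.06 SE in SDS22-degron cells. MRPS14, in the head of the small subunit, was at 29.2, 27.2 and 26.3 CPM in untreated and at 30.8, 32.1 and 29.6 CPM in treated SDS22-degron cells (0.16 ± 0.08 SE, 95% interval -0.01 to 0.34, adjusted p = 0.105). The treated libraries lay above the untreated ones without passing the test. MRPL33 was at 42.2, 40.2 and 40.8 CPM untreated and at 40.2, 48.1 and 45.0 CPM treated (0.11 ± 0.08 SE, adjusted p = 0.223). It shares its strand and position with BRE, as MRPL38 does with a gene known only by a clone name, and MRPL38 was low at 5.50 CPM on average. All 12 were also not called in parental cells.

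The parental and SDS22-degron comparisons share no library. All 37 members that fell in parental cells also fell in SDS22-degron cells, which is 100% of the parental and 56.9% of the SDS22-degron list. A further 28 were called in SDS22-degron cells alone. Since 84.4% of the members fell in SDS22-degron cells, a large overlap follows from that share. The same overlap over all genes is not given here, so it is not read as a trait of the members. Across the 77 members, the fold changes of the lines had a Pearson r of 0.77 and a Spearman rho of 0.74, against 0.64 and 0.64 across all 16657 genes. Genes of 1 library share its depth and scaling and are not independent replicates. The large and small subunits gave similar values: 42 of 49 MRPL and 23 of 28 tested MRPS genes fell in SDS22-degron cells, with medians of -0.41 and -0.41. In parental cells 22 MRPL and 15 MRPS genes fell, with medians of -0.21 and -0.24.

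Members with and without a bacterial counterpart were divided by number (up to L36 and S21) and by the 3 later names that have one (MRPL47, MRPS24 and MRPS28), a division made after the values were seen. Of the 46 tested with a counterpart, 42 fell in SDS22-degron cells (median -0.44), and of the 31 without one, 23 fell (median -0.38). In parental cells the counts were 26 and 11, with medians of -0.23 and -0.17. No test was made of this difference. Neither GC content (Spearman rho -0.23), gene length (0.11), exon number (-0.06) nor mean level (-0.23) was closely related to the fold change in SDS22-degron cells across the 77 members. The members had a median GC content of 48.3%, against 48.1% in all tested genes, and a median gene model of 2464 bases against 4066. Promoters with any of the 3 motifs had a median fold change of -0.41 in SDS22-degron cells and promoters with none -0.41. By motif, the medians with and without it were -0.44 and -0.41 for NRF1, -0.50 and -0.40 for GABPA, and -0.36 and -0.41 for YY1. These differences were not tested.

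Whether the Dox/IAA effect itself differed between the lines was tested as an interaction. It was negative, that is, a larger fall in SDS22-degron cells, in 72 of 77 members, with a median of -0.20 against -0.0019 for all genes. At an adjusted p under 0.05, 12 members were lower in this sense, which is 15.6% of them, against 8.35% of all genes. No member was higher by edgeR (0, and 0 at an unadjusted p under 0.05), the likelihood ratio test (0) or DESeq2 (0), against 6.03% of all genes. The count depended on single libraries. It was 22 without replicate 2 of untreated parental cells, 5 without replicate 3 of untreated SDS22-degron cells, and 6 each without replicate 3 of untreated parental, replicate 2 of treated parental or replicate 2 of untreated SDS22-degron cells.

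MRPL24 had the most negative interaction among the 12 (-0.49 ± 0.13 SE, adjusted p = 0.0156), followed by MRPL12 (-0.48 ± 0.10 SE, adjusted p = 0.00277). MRPS18A (-0.46 ± 0.11 SE, adjusted p = 0.00760) and MRPS2 (-0.45 ± 0.10 SE, adjusted p = 0.00669) came next. MRPS7, in the head of the small subunit, was at 105, 119 and 106 CPM in untreated and at 94.3, 107 and 93.1 CPM in treated parental cells, which overlapped. It was at 102, 105 and 110 CPM in untreated and at 69.3, 69.8 and 69.3 CPM in treated SDS22-degron cells, and its interaction was -0.44 ± 0.10 SE (adjusted p = 0.00686). MRPS12 was the weakest of the 12 at -0.30 ± 0.09 SE (adjusted p = 0.0404), and 8 of the 12 fits that left out 1 library no longer called it. Among the 12, MRPS7, MRPL11, MRPS2, MRPS12 and MRPL51 overlap genes with counts on the opposite strand, and MRPS16 overlaps DNAJC9 on its own strand. MRPS18A, MRPL44 and MRPS16 lie opposite genes with few counts (14, 1 and 30). NCAPD2, opposite MRPL51, held 53766 counts against 15295 for MRPL51. Of the members named elsewhere, MRPS18B, MRPS18C, MRPS22, MRPS14, MRPL14, MRPL43 and MRPL47 also lie opposite genes with more counts than their own. The strand setting of the counting is not given in the sources used here, so reads from such partners cannot be told apart.

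Without treatment, the lines differed less, and members fell on both sides. Of the 77 members, 9 were lower in untreated SDS22-degron than in untreated parental cells (11.7%, against 15% of all genes) and 6 were higher (7.79%, against 13.2%). The median was -0.02. These shares are close to those of all genes or below them. Scaled by the upper quartile, 10 were higher and 6 lower, and by library size alone 6 and 6. Without replicate 2 of untreated parental cells 10 were higher, and there were 4 without its replicate 1 or 3 or without replicate 2 or 3 of untreated SDS22-degron cells. Again, without replicate 1 or replicate 2 of untreated SDS22-degron cells 5 were lower.

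The lower members lay on 4 chromosomes. Of the 9, 4 lay on chromosome 1, 3 on chromosome 3, 1 on chromosome 16 and 1 on chromosome 15, and the median of all tested genes between the untreated lines was -0.13, -0.27, -0.30 and -0.10 on these. MRPS22, a small subunit protein without a bacterial counterpart encoded on chromosome 3, was at 81.9, 93.1 and 84.4 CPM in untreated parental and at 63.5, 62.5 and 66.3 CPM in untreated SDS22-degron cells (-0.43 ± 0.08 SE, adjusted p = 0.000474). The groups did not overlap, and relative to its chromosome the value was -0.16. MRPL3, also on chromosome 3, was at 141, 148 and 140 CPM against 100, 113 and 108 CPM (-0.42 ± 0.08 SE, adjusted p = 0.000499), or -0.15 relative to the chromosome. MRPL24 on chromosome 1 stood at -0.35 (-0.21 relative to it), MRPL20 on chromosome 1 at -0.33 (-0.19) and MRPL46 on chromosome 15 at -0.38 (-0.28). For MRPS34 on chromosome 16 the difference of -0.30 became -0.0042 and for MRPL47 on chromosome 3 the difference of -0.26 became 0.01.

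Chromosome 8 had a median of -0.11, and none of its 3 members was called lower. The higher members lay on chromosomes 2, 5, 7 and 9. MRPL50, a large subunit protein without a bacterial counterpart, was at 32.8, 39.1 and 34.4 CPM in untreated parental and at 45.7, 46.6 and 49.0 CPM in untreated SDS22-degron cells (0.41 ± 0.08 SE, adjusted p = 0.000747). MRPL33 was at 31.1, 31.8 and 30.6 CPM against 42.2, 40.2 and 40.8 CPM (0.40 ± 0.08 SE, adjusted p = 0.000808). Neither gene overlapped between the lines. MRPL36 (0.37), MRPS5 (0.30) and MRPS33 (0.22), without overlap, and MRPL41 (0.29), with overlap, were higher as well. MRPS33 lost the call by DESeq2 and when no filter on low counts was used, and MRPL46 by DESeq2 and with either other scaling.

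After treatment, 39 members were lower in SDS22-degron than in parental cells (50.6%, against 23.1% of all genes) and 3 were higher (3.90%, against 21.8%), with a median of -0.23. This comparison shares its libraries with those above. It is the untreated difference plus the interaction, and a Dox/IAA effect common to both lines cancels in it. MRPL24 was at 44.5, 46.8 and 41.4 CPM in treated parental and at 27.0, 25.8 and 21.3 CPM in treated SDS22-degron cells (-0.84 ± 0.09 SE, adjusted p = 1.25e-06). MRPL3 differed by -0.72 ± 0.08 SE (adjusted p = 1.06e-06), MRPS22 by -0.61 ± 0.08 SE (adjusted p = 7.98e-06) and MRPL11 by -0.60 ± 0.09 SE (adjusted p = 4.74e-05). Relative to their chromosomes, MRPL24 stood at -0.72, MRPL3 at -0.46, MRPS22 at -0.36 and MRPL11 at -0.66. On chromosomes 1, 3 and 16, which had the lowest medians between the untreated lines, 13 of 14 members were lower (median -0.47). On the other chromosomes 26 of 63 were lower (median -0.17). MRPS28 differed by -0.56 ± 0.15 SE (adjusted p = 0.00610) at a low level of 7.56 CPM on average. The higher members were MRPL33 (0.39 ± 0.08 SE, adjusted p = 0.000454), MRPL41 (0.27, adjusted p = 0.0186) and MRPS5 (0.19, adjusted p = 0.0346), which were also higher without treatment.

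The genes that serve the mitochondrial ribosome were followed in lists written from general knowledge. Their counts stand against 15.7% of all genes lower in parental and 25.5% in SDS22-degron cells. The 5 subunits with other symbols fell in part: PTCD3, which binds RNA, GADD45GIP1 and AURKAIP1 fell in both lines, by 0.39, 0.31 and 0.36 on the log2 scale in SDS22-degron cells. DAP3, a GTP-binding protein of the small subunit, had a value of -0.16 there (adjusted p = 0.0526) and CHCHD1 one of -0.12. In parental cells the 3 calls became 1 without replicate 2 of the untreated or replicate 1 of the treated libraries. Of 28 assembly factors, 10 fell in parental (median -0.17) and 19 in SDS22-degron cells (median -0.29). MRM1, a methyltransferase for the large rRNA, fell by 0.63 in parental cells and from 17.9 ± 2.70 to 8.06 ± 0.859 CPM (SD, n = 3) in SDS22-degron cells, where MTERF3 fell by 0.83. NGRN and NSUN4 rose there, by 0.35 and 0.25, and 1 of them was called without replicate 1 or 2 of the untreated or replicate 1 or 3 of the treated SDS22-degron libraries.

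Of 17 translation factors, 8 fell in parental (median -0.22) and 11 in SDS22-degron cells (median -0.44). The recycling factor MRRF changed by -0.76 and the elongation factor TUFM by -0.72 in SDS22-degron cells. Of 20 aminoacyl-tRNA synthetases and related enzymes, 10 fell in parental (median -0.20) and 13 in SDS22-degron cells (median -0.39), among them NARS2 at -0.73. Of 11 tested regulators of nuclear-encoded mitochondrial genes, 6 fell in parental (median -0.32) and 10 in SDS22-degron cells (median -0.46). The lowest were MYC (-1.18 and -1.30) and the coactivator PPARGC1B (-0.67 and -1.14). NRF1 itself had values of -0.15 (adjusted p = 0.218) and -0.46 (adjusted p = 0.000250), YY1 of 0.01 (adjusted p = 0.960) and -0.24 (adjusted p = 0.00573), and GABPA of -0.03 and -0.02, neither called.

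Of 21 genes of the mitochondrial stress response, 17 fell in parental cells (median -0.57) and 14 in SDS22-degron cells (median -0.32). The shares of all genes that were lower were 15.7% and 25.5%. DDIT3 (-2.07) and CHAC1 (-1.80) were lowest in parental cells, but replicate 1 of the untreated parental libraries decided these values. DDIT3 was at 80.5 ± 110 CPM in that group (SD, n = 3), and without this library its fold change was 0.14 and not called, that of CHAC1 -0.93. The count of the list stayed within 1.5 times in every fit that left out 1 library, and for the mitochondrial ribosomal protein genes 36 fell in parental cells without this library. The lowest in SDS22-degron cells were the chaperonin genes HSPD1 (-1.11) and HSPE1 (-1.07), and there GDF15 (0.83) and SESN2 (0.72) rose. SESN2 lost its call by DESeq2 (0.73, adjusted p = 0.0719) and without replicate 1 or 2 of untreated or replicate 3 of treated SDS22-degron cells, with fold changes of 0.68 to 0.71 in these 3 fits. In parental cells 0 genes of these 6 lists rose by edgeR, with 0 at an unadjusted p under 0.05, 0 by the likelihood ratio test and 0 by DESeq2. In SDS22-degron cells 0 subunits with other symbols, translation factors and regulators rose by any of these tools or at an unadjusted p under 0.05, and 0 synthetases by any tool, with 1 at an unadjusted p under 0.05.

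The mRNAs that the mitochondrial ribosome reads had positive medians. Of the 13 mitochondrially encoded mRNAs, 10 rose in parental cells (median 0.40, where 15.9% of all genes were higher). In SDS22-degron cells 5 rose and 7 were not called (median 0.24, where 26.0% of all genes were higher), and MT-ND6, the mRNA of the opposite strand, fell by 1.06. In parental cells 6 rose without replicate 1 of the untreated libraries, and in SDS22-degron cells 9 rose without replicate 1 and 3 without replicate 3 of the treated libraries. Already without treatment 10 were higher in SDS22-degron than in parental cells (median 0.52, where 13.2% of all genes were higher). Summed, they were between 27720 and 30030 CPM in untreated and between 33337 and 39869 CPM in treated parental libraries. In SDS22-degron libraries they were between 39691 and 44936 CPM untreated and between 42652 and 60066 CPM treated, which overlapped. Their part in the scaling of other genes was not tested.

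Other like gene groups are the genes of the cytosolic ribosome and of the respiratory chain. Their counts again stand against 15.7% of all genes lower with Dox/IAA in parental and 25.5% in SDS22-degron cells. Of 81 tested cytosolic ribosomal protein genes, 71 fell in parental cells (median -0.41) and 37 in SDS22-degron cells (median -0.18). Their interaction was positive at the median (0.22), with 9 genes higher and 1 lower, and for the mitochondrial ribosomal protein genes it was -0.20, with 0 higher and 12 lower. Of 79 tested nuclear-encoded respiratory chain genes, 25 fell in parental (median -0.12) and 40 in SDS22-degron cells (median -0.20), which is the same direction as in the mitochondrial ribosomal protein genes, and the median interaction was -0.09, with 1 higher and 3 lower. Over all genes 6.03% were higher and 8.35% lower in the interaction, so that the respiratory counts and the single lower cytosolic gene were below these shares. The median interaction was also negative for the synthetases (-0.15, 4 of 20 lower), regulators (-0.24, 1 of 11) and assembly factors (-0.14, 3 of 28, 1 higher). It was -0.13 for the translation factors and -0.07 for the subunits with other symbols, with 0 called in each. For the stress response it was 0.03, with 6 higher and 3 lower. The difference between these groups of genes was not tested.

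Per kilobase of gene model, the mean level of the tested members spanned 63.5-fold, with a median of 21.2 CPM per kilobase and the middle 50% between 11.4 and 35.9. MRPS34 (85.2 CPM per kilobase), MRPL51 (63.4), MRPS26 (61.8), MRPL18 (60.1) and MRPL14 (54.7) were highest. MRPL53 (1.34), MRPL46 (1.44), MRPL38, MRPL23 (1.93) and MRPS18C (2.45) were lowest among those tested, and MRPS24, not tested, was at 0.152. The model is the union of annotated exons, so a gene with long rare exons has a low value by this measure: MRPL42, with 16393 bases, was at 92.5 CPM but at 5.65 per kilobase. Within a group, the SD over 3 libraries was 5.45% of the mean for the median member. Of the members, 22 overlap another gene on the same strand, and for 8 of these the partner is protein coding and has counts, among them MRPS17, MRPL53 and MRPS6, whose partners GBAS, CCDC142 and SLC5A3 had more counts than they did. The 75 pseudogenes named after members held 19678 counts, against 677919 for the members.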

How the data were processed

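RNA was sequenced from 12 libraries, 3 in each of 4 groups, which were taken from the sample labels (0 columns could not be mapped). Replicates are labelled as biological, and p-values measure the spread between these libraries. The deposited values are raw counts per gene, made by the authors from poly-A selected, stranded, 75 bp single-read libraries, with gene positions, lengths and the GC content in percent. The submitters' processing notes name cutadapt 1.15, Bowtie2 2.3.3.1, STAR 2.5.2b, SAMtools 1.5, featureCounts 1.5.3 and GRCh38, and the annotation release and strand setting are not given in the sources used here. Reads shared by overlapping genes or pseudogenes could not be reassigned.

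Genes were filtered with filterByExpr (minimum count 10), which left 16657 of 58233. Counts were TMM-normalized and fitted with edgeR 4.0.16 (R 4.3.3) with a mean for each group, in place of the study's likelihood ratio test, which was run as an alternative. The quasi-likelihood F test had its p-values adjusted across these genes (Benjamini-Hochberg). Standard errors were derived from the fold change and its F statistic. The procedure was tested on simulated data. No 2 columns were identical, and replicates differed by more than counting noise (chi-square per degree of freedom 2.16 to 9.73). The median SE was 0.110 between 2 groups and 0.156 in the interaction, and their precision covers 3 libraries per group.

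The members and lists were chosen with earlier results of these data known. Named members are the 5 highest and 5 lowest called ones per comparison whose libraries did not overlap (for the interaction, all called), the 5 highest and lowest per kilobase, and MRPL12, MRPS12, MRPL58, MRPS18A, MRPS18B, MRPS18C, MRPS30 and MRPS36. From each list the 2 highest and 2 lowest called genes may be named, and further genes were named for their role. As alternatives, the fit was repeated with the likelihood ratio test, DESeq2 1.42.0, library-size and upper-quartile scaling, no filter, a 1 CPM filter, only the groups compared, a replicate block, a GC correction alone and with that block, and leaving out each library.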

Additional observations from a re-analysis of the deposited data

Results flagged for a closer look

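The Dox/IAA effect differed between the lines by the interaction test of edgeR in 12 of the 77 members (adjusted p under 0.05), all with the larger fall in SDS22-degron cells, which is 15.6% of them against 8.35% of all genes. Among these 12, the most negative interactions were those of MRPL24 (-0.49, adjusted p = 0.0156), MRPL12 (-0.48, adjusted p = 0.00277), MRPS18A (-0.46, adjusted p = 0.00760), MRPS2 (-0.45, adjusted p = 0.00669) and MRPS7 (-0.44, adjusted p = 0.00686) on the log2 scale. All 3 libraries of treated SDS22-degron cells were below all 3 of treated parental cells for each of these 5 genes. The genes were picked by a contrast that uses these same libraries, so this is no separate support. Of the 77 members, 45 showed this pattern. Groups of 3 libraries are too small for a test of single outlying libraries.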

How the results depend on the processing

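No direction of a named member reversed in a setting where either fit called it, and the median of all genes moved by at most 0.0599 under another scaling. The counts of members not named below stayed within 1.5 times. With library sizes alone, 1 member was higher with Dox/IAA in parental and 1 in SDS22-degron cells. With the GC correction, alone or with the replicate block, 1 was higher in SDS22-degron cells and 5 were higher between the treated lines. With upper-quartile scaling, 10 were higher between the untreated lines. With the replicate block, the interaction called 19 members lower in place of 12, while the members lower with Dox/IAA were 42 in parental and 67 in SDS22-degron cells. The replicate numbers were not shown to pair the libraries: 7 of 18 same-numbered pairs had a correlation of deviations over 0.1 (range -0.0569 to 0.246), while 11 of the 12 libraries correlated best with a library of their own number, which is a hint from the data and not from the design. Leaving out 1 library gave 27 to 42 lower members in parental and 57 to 66 in SDS22-degron cells, 5 to 9 lower and 4 to 10 higher between the untreated lines, 30 to 40 lower and 2 to 3 higher between the treated lines, and 5 to 22 lower in the interaction. For the counts that moved, the cause was not tested. Relative to the chromosome medians, the median member stood at -0.0073 between the untreated and -0.21 between the treated lines. For the regulators, the stress response and the mitochondrially encoded mRNAs, the alternatives were chosen after seeing the data. At 3 libraries per group, a log2 difference under about 2 SE was mostly not detectable, which is 0.220 between 2 groups at the median SE of all tested genes. Many members had a smaller SE, and some with a smaller difference were called, such as MRPS15 in parental cells (-0.213 ± 0.07 SE). A difference above 2 SE did not always pass the adjusted p of the edgeR test. MRPL37 in parental cells (-0.172 ± 0.066 SE, adjusted p = 0.0556) was not called. In the interaction, where the median SE was 0.156, MRPS18B (-0.321 ± 0.106 SE, adjusted p = 0.0502) was not called.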
